A study of Homo sapiens with 15 samples.

Results

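The 32 genes described here code for the enzymes that build cholesterol and fatty acids and for the proteins that control those enzymes, and they were taken by gene symbol from the 43388 gene rows of the count tables. No threshold on a measured value entered the choice, but earlier results of these data were known when it was made. They fell into 18 genes of the sterol pathway (ACAT2, HMGCS1, MVK, PMVK, MVD, IDI1, FDPS, FDFT1, SQLE, LSS, CYP51A1, TM7SF2, MSMO1, NSDHL, HSD17B7, EBP, SC5D and DHCR7), 6 regulators (INSIG1, INSIG2, SREBF1, SREBF2, SCAP and STARD4) and 8 genes of the fatty acid pathway (FASN, ACACA, ACLY, ACSS2, SCD, ELOVL6, FADS1 and FADS2). All 32 passed the filter on low counts. With vehicle, 19 of them had lower counts in hyperoxia than in normoxia by edgeR's quasi-likelihood test and none had higher counts, against 8.81% lower and 8.68% higher of the 14957 genes tested, and the 19 fell to 12 when hyperoxia vehicle replicate 2 was left out.

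Animal cells make cholesterol from acetyl-CoA through mevalonate, farnesyl diphosphate, squalene and lanosterol, and several of the later steps consume molecular oxygen. Fatty acids come from the same acetyl-CoA, which is carboxylated, joined into a saturated chain, and then lengthened and desaturated. Both routes are controlled by SREBP transcription factors, which SCAP escorts out of the endoplasmic reticulum when sterols are scarce and INSIG proteins hold back when sterols are plentiful. In the lung these routes are known for supplying the lipid of pulmonary surfactant in alveolar type II cells.

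RNA sequencing had been carried out on A549, an established human lung adenocarcinoma line with an epithelial character that is used as a model of the alveolar epithelium, so the cells are adult tumor cells in culture. All-trans retinoic acid (ATRA), the active form of vitamin A, at 1e-05 mM, or its solvent ethanol (vehicle), was given for 24 hours before the oxygen exposure, and the cells were then kept for 72 hours in 95% O2 (hyperoxia) or 21% O2 (normoxia). The study's methods state that the exposure itself also took place with or without ATRA. The libraries fell into hyperoxia with vehicle (n = 2), normoxia with vehicle (n = 2), hyperoxia with ATRA (n = 3), normoxia with ATRA (n = 3), hyperoxia without vehicle (n = 2) and normoxia without vehicle (n = 2). The cells of every group were wild type, and the labels do not say whether the libraries of a group came from separate cultures, so each p-value measures the spread between these libraries, which may be technical.

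The 14 libraries held between 2642377 and 5605072 counts in genes. Replicate 1 of hyperoxia without vehicle stood apart: it had counts in 12657 genes, against 16465 to 20108 in the other 13 libraries, although its depth of 4910396 counts lay within the range of the others. The comparisons that use this library are therefore also given without it, by their counts and by the values of the members named. Levels are given in CPM, counts scaled to the TMM-normalized size of the library, and 3 counts corresponded to between 0.535 and 1.14 CPM, a limit that covers counting error only. The epithelial keratins KRT8 and KRT18 had at least 1890 counts in each library, while EPCAM, another epithelial marker, had 0 to 4 counts in the hyperoxia and 5 to 24 in the normoxia libraries. Of 6 markers of blood, endothelial and fibroblast cells, VWF was at 0 in every library, PTPRC had at most 1 count and PECAM1 at most 4. The fibroblast markers COL1A1 and COL3A1 had 0 to 9 and 0 to 7 counts in hyperoxia, and 5 to 38 and 0 to 17 in normoxia. Of these 6 markers, 3 passed the filter on low counts. Their summed level was 61.2 to 103 CPM in hyperoxia and 26.4 to 39.3 CPM in normoxia, most of it CD68, a lysosomal protein of macrophages. The summed level of 5 epithelial markers was 1685 to 4203 CPM in hyperoxia and 5743 to 9562 CPM in normoxia. The part of these differences in the results below was not tested.

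The promoters are shown first because many members hold the same short motifs there, which the choice of genes did not use. RefSeq (GRCh38.p14) held a window of 250 bases before to 50 bases after the transcription start for 28 of the 32 members, and ACAT2, FDFT1, SQLE and FASN had no entry. Printed below are 5′ to 3′ stretches upstream of the start on the gene's own strand, without bases that GENCODE annotates as an exon of the gene or as untranslated sequence: the 4 sterol genes with an entry that had the largest difference in hyperoxia, and SREBF2, the member whose window held the classical sterol regulatory element. Capitals mark the letters searched for on both strands, which were CCAAT (the box read by the factor NF-Y, seen as ATTGG on the other strand), GGGCGG (the GC box read by Sp1, seen as CCGCCC) and TCACNCCAC (a sterol regulatory element), and different motifs share no letters in these stretches.
FDPS: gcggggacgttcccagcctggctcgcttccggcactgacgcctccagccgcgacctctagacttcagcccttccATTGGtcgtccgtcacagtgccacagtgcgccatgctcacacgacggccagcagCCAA
EBP: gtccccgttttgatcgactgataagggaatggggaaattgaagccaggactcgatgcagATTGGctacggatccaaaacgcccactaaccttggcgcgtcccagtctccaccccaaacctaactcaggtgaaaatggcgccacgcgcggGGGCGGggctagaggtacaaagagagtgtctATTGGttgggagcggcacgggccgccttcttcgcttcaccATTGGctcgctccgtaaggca
HMGCS1: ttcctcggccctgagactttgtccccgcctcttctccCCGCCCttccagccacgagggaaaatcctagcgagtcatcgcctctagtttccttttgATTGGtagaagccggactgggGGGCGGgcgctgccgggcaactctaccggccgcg
MVK: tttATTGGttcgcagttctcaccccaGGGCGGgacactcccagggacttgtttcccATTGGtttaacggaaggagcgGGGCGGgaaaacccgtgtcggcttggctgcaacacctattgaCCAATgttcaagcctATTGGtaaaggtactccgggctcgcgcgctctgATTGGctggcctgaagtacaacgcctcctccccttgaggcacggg
SREBF2: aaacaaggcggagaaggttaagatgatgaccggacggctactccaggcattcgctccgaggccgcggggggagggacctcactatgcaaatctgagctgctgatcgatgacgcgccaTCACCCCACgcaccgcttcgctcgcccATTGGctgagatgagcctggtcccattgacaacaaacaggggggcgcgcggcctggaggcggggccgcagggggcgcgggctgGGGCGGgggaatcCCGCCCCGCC
These lie at chr1:155308616-155308747 (FDPS, plus strand), chrX:48521558-48521798 (EBP, plus strand), chr5:43313513-43313662 (HMGCS1, minus strand), chr12:109573581-109573792 (MVK, plus strand, within the span of the gene and upstream of the start that the promoter table gives) and chr22:41832855-41833104 (SREBF2, plus strand), and the last 4 capitals of FDPS begin a CCAAT that runs past the end of the stretch. The last capitals of SREBF2 hold a pair of overlapping GC boxes that share 1 base, and the second of them also runs past the end. Across the full windows, CCAAT stood in 21 of the 28 members, against 34.6% of all 35116 promoter windows and 39.7% of the 27305 genes with one. Within the 100 bases before the start it stood in 12 of 15 sterol genes, 0 of 6 regulators and 1 of 7 fatty acid genes. The shares there were 18.1% of all windows and 21.6% of the genes with one. GGGCGG stood in 27 of 28 members, against 45.0% of all windows and 48.3% of genes. TCACNCCAC stood in 1 of 28 members, SREBF2, against 1.13% of all windows and 1.39% of genes. These shares cover every gene with a window, whether or not it passed the filter on low counts as the members did. Whether the motifs are more frequent in the members than in other expressed genes was not tested. A match is a run of letters and not a measured binding site, and a member without one may hold another spelling or have its element elsewhere.

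The first question was what hyperoxia did to these genes in cells that had received vehicle. In that comparison 12 of the 18 sterol genes, 3 of the 6 regulators and 4 of the 8 fatty acid genes had lower counts in hyperoxia at an adjusted p under 0.05, and no member was higher, beside the 8.81% lower and 8.68% higher of all genes by the same rule. The median log2 fold change was -0.99 over the sterol genes, -0.72 over the regulators and -0.58 over the fatty acid genes, against 0.01 over all genes tested, and 30 of the 32 members lay below 0. In bulk RNA, fewer cells of a kind and less RNA per cell cannot be told apart. Without hyperoxia vehicle replicate 2, the number of members called was 12 instead of 19 while all genes called in either direction went from 2616 to 1386, and the calls of ACAT2, CYP51A1, IDI1, INSIG1, MSMO1, MVK and SREBF2 were lost (adjusted p from 0.052 to 0.128). Leaving out hyperoxia vehicle replicate 1 ended the calls of MSMO1 and SREBF2, normoxia vehicle replicate 1 those of IDI1, INSIG1 and MSMO1, and normoxia vehicle replicate 2 those of MSMO1, MVK and SREBF2 (adjusted p from 0.0523 to 0.191). With all 14 libraries in the fit INSIG1, MSMO1, NSDHL and SREBF2 lost their calls (adjusted p from 0.0867 to 0.533).

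**Figure D1:**
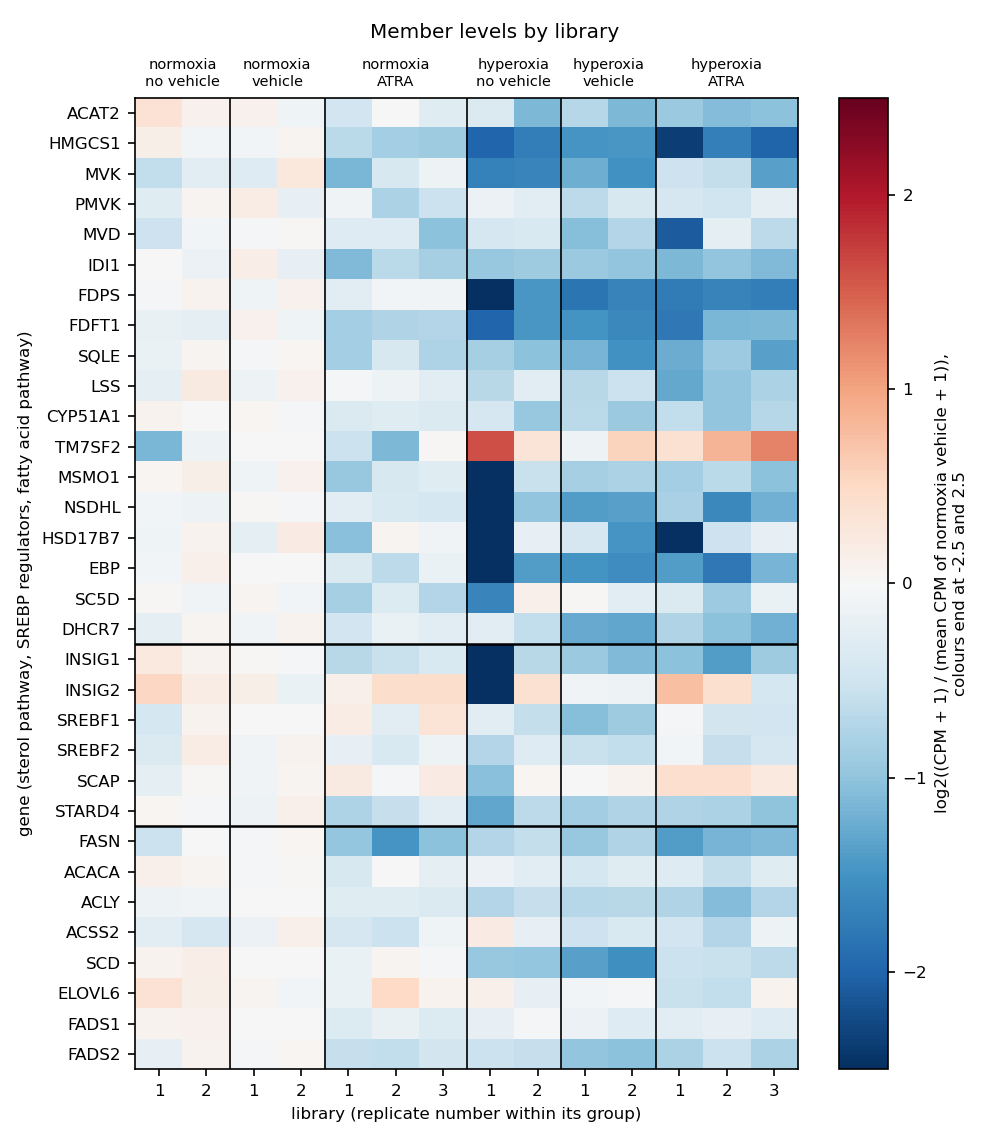
Level of each member (rows) in each of the 14 libraries (columns, by group and replicate number), as the log2 ratio of CPM + 1 to the mean of the normoxia vehicle libraries + 1. Blue cells are lower and red cells higher than normoxia with vehicle: the hyperoxia libraries are blue in most rows, TM7SF2 is red in hyperoxia with ATRA, and replicate 1 of hyperoxia without vehicle has the darkest cells.

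Among the early enzymes, HMGCS1, the cytosolic synthase that forms the precursor of mevalonate, lies on chromosome 5 (bases 43287470 to 43313412). It had 53.8 and 54.6 CPM in hyperoxia and 144 and 157 CPM in normoxia, both with vehicle. The groups did not overlap, and the log2 fold change of -1.47 ± 0.19 (SE, edgeR adjusted p = 6.82e-06) put hyperoxia at 0.360 of the normoxia level. Upstream of it, ACAT2, the thiolase that joins acetyl-CoA units, had 55.1 and 41.1 CPM in hyperoxia and 97.7 and 83.7 CPM in normoxia, with a log2 fold change of -0.92 ± 0.20 (SE, edgeR adjusted p = 0.0023). Next in order comes MVK, mevalonate kinase, on chromosome 12 (bases 109573272 to 109598125), with 12.99 and 10.4 CPM in hyperoxia and 25.0 and 38.5 CPM in normoxia. Its normoxia libraries were spread more widely than those of HMGCS1, and its log2 fold change of -1.46 had a standard error of 0.37 (adjusted p = 0.008 from edgeR). The kinase and decarboxylase that follow, PMVK and MVD, had log2 fold changes of -0.53 (adjusted p = 0.263) and -0.92 (adjusted p = 0.148) and were not called.

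The isoprenoid steps held the member with the largest difference. FDPS, which joins isoprene units into farnesyl diphosphate, lies on chromosome 1 (bases 155308866 to 155320665) and had 34.5 and 38.7 CPM in hyperoxia against 116 and 135 CPM in normoxia. Both hyperoxia libraries lay far below, at 0.292 of the normoxia level with a log2 fold change of -1.78 ± 0.17 (SE, edgeR adjusted p = 2.06e-07). IDI1, the isomerase that supplies FDPS, had 31.0 and 29.7 CPM in hyperoxia and 67.4 and 52.0 CPM in normoxia, with a log2 fold change of -0.97 ± 0.23 (SE, edgeR adjusted p = 0.00455). FDFT1, the squalene synthase that commits farnesyl diphosphate to sterols, had 59.4 and 54.7 CPM in hyperoxia and 182 and 156 CPM in normoxia. The hyperoxia libraries of FDFT1 lay far below both normoxia libraries, with a log2 fold change of -1.57 ± 0.19 (SE, edgeR adjusted p = 4.44e-06). SQLE, the epoxidase that adds the first oxygen to squalene, had 49.8 and 38.8 CPM in hyperoxia and 108 and 116 CPM in normoxia, with a log2 fold change of -1.35 (adjusted p = 5.52e-05 from edgeR). LSS, which closes the ring to lanosterol, had 32.9 and 36.5 CPM in hyperoxia and 49.4 and 58.2 CPM in normoxia without overlap, and its log2 fold change of -0.63 missed the threshold (adjusted p = 0.0527).

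After lanosterol, 5 of 8 genes were lower. EBP, the sterol isomerase of the late pathway, lies on chromosome X (bases 48521808 to 48528716) and had 26.8 and 26.0 CPM in hyperoxia and 77.2 and 78.2 CPM in normoxia, with a log2 fold change of -1.56 ± 0.23 (SE, edgeR adjusted p = 3.72e-05). NSDHL, a dehydrogenase that takes part in removing methyl groups from the ring, had 16.7 and 17.1 CPM in hyperoxia and 46.2 and 44.5 CPM in normoxia. Its replicates lay close together in both groups, and the log2 fold change was -1.42 (adjusted p = 0.000668, and 0.273 with all 14 libraries in the fit). DHCR7, a reductase that can complete cholesterol, had 57.5 and 55.8 CPM in hyperoxia and 130.0 and 147 CPM in normoxia, with a log2 fold change of -1.30 (adjusted p = 1.54e-05). The demethylase CYP51A1 and the methylsterol oxidase MSMO1 were lower by smaller amounts, with log2 fold changes of -0.81 and -0.84 (adjusted p = 0.00178 and 0.0231). HSD17B7, SC5D and TM7SF2 were not called. HSD17B7, a ketosteroid reductase, had 6.63 and 2.65 CPM in hyperoxia and 7.65 and 10.6 CPM in normoxia, the lowest levels of the sterol genes, and its log2 fold change of -1.02 carried a standard error of 0.76. The desaturase SC5D had a log2 fold change of -0.12 and the reductase TM7SF2 one of 0.28, and each changed its sign when hyperoxia vehicle replicate 2 was left out. TM7SF2 had 12.7 and 21.2 CPM in hyperoxia and 13.9 and 14.2 CPM in normoxia, so its groups overlapped.

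Of the 6 regulators, INSIG1, SREBF1 and SREBF2 were lower. SREBF1 encodes the SREBP forms that act mainly on fatty acid genes and had 120.1 and 137 CPM in hyperoxia and 251 and 256 CPM in normoxia, with a log2 fold change of -0.98 ± 0.18 (SE, edgeR adjusted p = 0.000548). SREBF2 encodes the form that acts mainly on sterol genes and had 113 and 109 CPM in hyperoxia and 157 and 178 CPM in normoxia, with a log2 fold change of -0.60 ± 0.16 (SE, edgeR adjusted p = 0.0134). The vehicle groups did not overlap for either gene. INSIG1, itself a target of the SREBPs, had 21.2 and 18.7 CPM in hyperoxia and 42.1 and 40.3 CPM in normoxia, with a log2 fold change of -1.05 ± 0.26 (SE, edgeR adjusted p = 0.00726). SCAP, the escort protein, had 64.4 and 69.0 CPM in hyperoxia and 60.8 and 68.1 CPM in normoxia. Those libraries overlapped, and the log2 fold change of 0.05 turned negative without hyperoxia vehicle replicate 2 or normoxia vehicle replicate 1. INSIG2 had a log2 fold change of -0.10 (standard error 0.43), and STARD4, which carries cholesterol between membranes, one of -0.85 that missed the threshold (adjusted p = 0.0534 from edgeR).

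In the fatty acid pathway SCD, which places the first double bond in palmitate and stearate, had the largest difference. Its gene is on chromosome 10 (bases 100347233 to 100364826), and its level was 1154 and 1023 CPM in hyperoxia and 2929.6 and 3002 CPM in normoxia. The log2 fold change of -1.45 ± 0.13 (SE, edgeR adjusted p = 5.02e-08) put hyperoxia at 0.367 of the normoxia level. FADS2, a desaturase of polyunsaturated fatty acids, had 481 and 469 CPM in hyperoxia and 922 and 985 CPM in normoxia, with a log2 fold change of -1.01 ± 0.13 (SE, edgeR adjusted p = 8.4e-06). FASN, the synthase that builds palmitate, on chromosome 17 (bases 82078338 to 82098236), had 513 and 586 CPM in hyperoxia and 949.9 and 1028 CPM in normoxia. Its hyperoxia libraries lay below both normoxia libraries, with a log2 fold change of -0.85 ± 0.16 (SE, edgeR adjusted p = 0.00047). ACLY, which releases acetyl-CoA from citrate, had 504 and 512 CPM in hyperoxia and 829 and 819 CPM in normoxia, with a log2 fold change of -0.70 (adjusted p = 0.000628). The carboxylase ACACA, the acetate-activating ACSS2, the elongase ELOVL6 and the desaturase FADS1 were not called, with log2 fold changes of -0.38, -0.47, -0.05 and -0.23.

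Per kilobase of the canonical transcript, SCD, FADS2, ACLY, FASN and FADS1 of the fatty acid pathway held the highest levels of the 32 members. In normoxia with vehicle SCD had 565 ± 9.71 CPM per kb (SD, n = 2), followed by FADS2 with 308 ± 14.6 and ACLY with 192 ± 1.72. FASN with 117 ± 6.51 and FADS1 with 109.8 ± 1.38 CPM per kb did not differ beyond their spread. FDPS led the sterol genes with 88.4 ± 9.51 CPM per kb, and FDFT1 with 83.3 ± 9.05 did not differ from it beyond the spread. At the other end, SC5D had 3.98 ± 0.251 and INSIG2 2.88 ± 0.481 CPM per kb. In hyperoxia with vehicle SCD stood at 208 ± 17.7 CPM per kb, still the highest, and FDPS at 25.8 ± 2.10.

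Cells without vehicle gave a second comparison of the oxygen exposures with other libraries. There 9 sterol genes, 1 regulator and 3 fatty acid genes were lower in hyperoxia, 13 of 32 members, against 7.58% of the 15339 genes tested, and 1 member, TM7SF2, was higher, against 7.57%. The median log2 fold change of the members was -0.64, against -0.10 over all genes. Without the library that stood apart these medians were -0.51 and -0.03, and 8 members were called. With only the 4 libraries of this comparison in the fit, none of the 32 was called by edgeR and 0.419% of all genes were, and the lowest adjusted p among the members was 0.0505 (HMGCS1). HMGCS1 had 37.6 and 45.0 CPM in hyperoxia and 166 and 142 CPM in normoxia, with a log2 fold change of -1.91 ± 0.20 (SE, edgeR adjusted p = 1.44e-05), and without the library that stood apart the log2 fold change was -1.78. FDPS had 20.4 and 45.3 CPM in hyperoxia and 123 and 133 CPM in normoxia, with a log2 fold change of -1.99 ± 0.26 (SE, edgeR adjusted p = 0.000102). The lower of the hyperoxia values of FDPS came from the library that stood apart, and without it the log2 fold change was -1.50 (adjusted p = 4.83e-05). SCD had 1538 and 1514 CPM in hyperoxia and 3149 and 3316 CPM in normoxia, with a log2 fold change of -1.08 ± 0.12 (SE, edgeR adjusted p = 2.52e-05), and -1.10 without that library. DHCR7, MSMO1, NSDHL, SREBF1, SREBF2 and FASN, lower with vehicle, were not called here. FASN had 595 to 658 CPM in hyperoxia and 678 to 981 CPM in normoxia, and DHCR7 90.6 to 114 and 118 to 145 CPM. SREBF1 (166 to 210.1 and 186 to 269 CPM) and SREBF2 (100 to 133 and 131 to 191 CPM) overlapped, SREBF1 only through the library that stood apart. Without it the log2 fold changes were -0.34 for FASN, -0.54 for DHCR7, -0.45 for SREBF1 and -0.27 for SREBF2.

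That library set several other values apart. In it NSDHL had 0.599, MSMO1 1.997, INSIG1 2.996 and INSIG2 0.200 CPM, and HSD17B7 had 0 counts, which allows up to 0.611 CPM. The second hyperoxia library without vehicle had 22.5, 31.6, 25.1, 13.7 and 7.82 CPM for these genes in the same order. The log2 fold change of INSIG1 was -1.78 with the library and -0.89 without it (adjusted p = 0.0432 and 0.0762). TM7SF2, the sterol reductase that was higher, went from 1.78 to 0.96 (adjusted p = 0.0365 and 0.287), and MVK from -1.33 to -1.31 (adjusted p = 0.0496 and 0.0987). The 8 members called without this library (ACAT2, HMGCS1, FDPS, FDFT1, SQLE, CYP51A1, EBP and SCD) were lower, and 10.5% of all genes were then called in either direction, against 15.2% with it. Without hyperoxia no vehicle replicate 2, when the library that stood apart was the one hyperoxia library left, 24 members and 43.6% of all genes were called. Without normoxia no vehicle replicate 1 or 2 there were 8 each, with 5.81% and 8.35% of all genes. Leaving out normoxia no vehicle replicate 1 ended the calls of ACAT2, CYP51A1, IDI1, INSIG1, MVK and TM7SF2, and replicate 2 those of FADS2, IDI1, INSIG1, MVK, SQLE and TM7SF2. INSIG1, MVK and TM7SF2 were so close to the threshold that most libraries of other groups, which enter through the shared spread, also ended their calls when left out.

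With ATRA, 3 libraries against 3, 13 members were lower in hyperoxia, against 11.3% of the 14957 genes tested, and 1 was higher, against 11.4%. The lower ones were 10 sterol genes, SREBF1, ACLY and SCD, and the median log2 fold change of the members was -0.38, against 0.01 over all genes. FDPS had 36.6, 38.6 and 37.3 CPM in hyperoxia and 102, 119.8 and 118 CPM in normoxia, with a log2 fold change of -1.60 ± 0.14 (SE, edgeR adjusted p = 4.45e-08). HMGCS1 had 28.5, 45.2 and 36.6 CPM in hyperoxia and 93.9, 83.0 and 80.4 CPM in normoxia, with a log2 fold change of -1.25 ± 0.16 (SE, edgeR adjusted p = 6.92e-06). Neither gene overlapped between the exposures. EBP and LSS had log2 fold changes of -1.05 and -0.90 (adjusted p = 0.00029 and 0.00136). The higher member was TM7SF2, with 18.6, 26.0 and 34.7 CPM in hyperoxia and 9.39, 5.93 and 14.3 CPM in normoxia, again without overlap, and a log2 fold change of 1.40 ± 0.33 (SE, edgeR adjusted p = 0.00368). SREBF1 had 249.5, 184 and 181 CPM in hyperoxia and 288, 210.4 and 319 CPM in normoxia, whose ranges overlapped, and a log2 fold change of -0.41 (adjusted p = 0.0484). SCD had 2049, 2022 and 1881 CPM in hyperoxia and 2630.5, 3107 and 2852 CPM in normoxia, without overlap, and a log2 fold change of -0.53 (adjusted p = 0.000565). FASN was not called here, with 376, 443 and 458 CPM in hyperoxia and 505, 355 and 485 CPM in normoxia, which overlapped, and a log2 fold change of -0.08 (adjusted p = 0.72). Of the calls, SREBF1 was lost without normoxia ATRA replicate 1 or 3 or hyperoxia ATRA replicate 2 or 3, CYP51A1 without any of the 6 libraries but hyperoxia ATRA replicate 1, SQLE without hyperoxia ATRA replicate 1 or 3 or normoxia ATRA replicate 2, and FDFT1 without hyperoxia ATRA replicate 1 (adjusted p from 0.0545 to 0.185). With all 14 libraries in the fit CYP51A1, FDFT1, NSDHL, SQLE and SREBF1 were not called (adjusted p from 0.0506 to 0.417), and with only the 6 ATRA libraries CYP51A1, SQLE and SREBF1 were not (0.0535 to 0.0735).

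**Figure D2:**
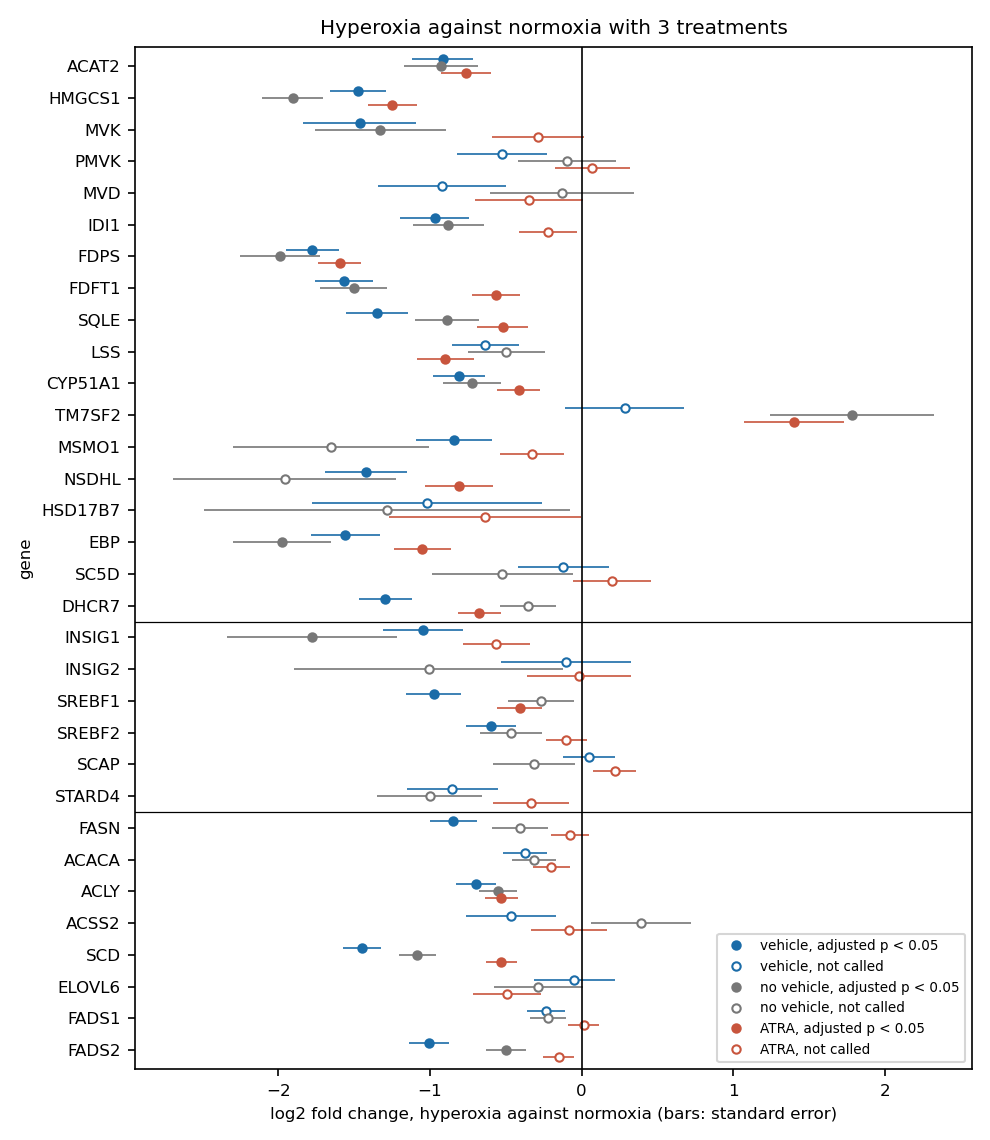
Log2 fold change of each member in hyperoxia against normoxia with its standard error, with vehicle (blue), without vehicle (gray) and with ATRA (red), where filled points had an adjusted p under 0.05 by edgeR. Most points lie left of 0; FDPS is lowest with vehicle (-1.78) and with ATRA (-1.60), and the filled points to the right of 0 belong to TM7SF2, with ATRA (1.40) and without vehicle (1.78).

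Taking all 7 hyperoxia and 7 normoxia libraries without regard to treatment, every hyperoxia library lay below every normoxia library for 8 members (HMGCS1, FDPS, FDFT1, CYP51A1, NSDHL, EBP, ACLY and SCD), and the same held for 7.31% of the 15339 genes tested. No member lay above throughout, against 6.34% of genes. Without the library that stood apart, 11 members lay below throughout, ACAT2, SQLE and DHCR7 besides those 8, against 8.7% of genes, and 0 lay above, against 8.74%. FDPS ran from 20.4 through a median of 37.3 to 45.3 CPM in hyperoxia and from 102 through a median of 119.8 to 135 CPM in normoxia. SCD ran from 1023 through a median of 1538 to 2049 CPM in hyperoxia and from 2630.5 through a median of 3002 to 3316 CPM in normoxia. HMGCS1 ran from 28.5 through a median of 45.0 to 54.6 CPM in hyperoxia and from 80.4 through a median of 142 to 166 CPM in normoxia. Taken as a ratio and not in CPM, the gap between the highest hyperoxia and lowest normoxia library was widest for FDPS among these genes. The lowest value of FDPS came from the library that stood apart, without which its hyperoxia libraries began at 34.5 CPM. FDFT1 spanned 42.1 to 76.7 CPM in hyperoxia and 93.9 to 182 CPM in normoxia, and began at 48.7 CPM in hyperoxia without that library. EBP spanned 12.4 to 34.2 and 49.0 to 85.2 CPM in the same order, and its lowest hyperoxia value without that library was 21.8 CPM. ACLY spanned 387 to 548.9 and 641 to 829 CPM, and CYP51A1 54.0 to 80.1 and 84.1 to 115 CPM. Without that library the highest hyperoxia value of CYP51A1 was 70.5 CPM. For LSS the ranges overlapped by a narrow margin, since its highest hyperoxia library had 44.6 CPM and its lowest normoxia library 43.98 CPM. Genes of cell division moved with the same contrast. The summed level of 6 of them (MKI67, TOP2A, CCNB1, BUB1, CDK1 and AURKA) was 239 to 409.8 CPM in hyperoxia and 1469.8 to 2385 CPM in normoxia, and all 6 were lower with vehicle, with a median log2 fold change of -2.26. The lowest sum came from the library that stood apart, and the other hyperoxia libraries began at 267 CPM. The part of the difference in cell division genes in the members' values was not tested.

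**Figure D3:**
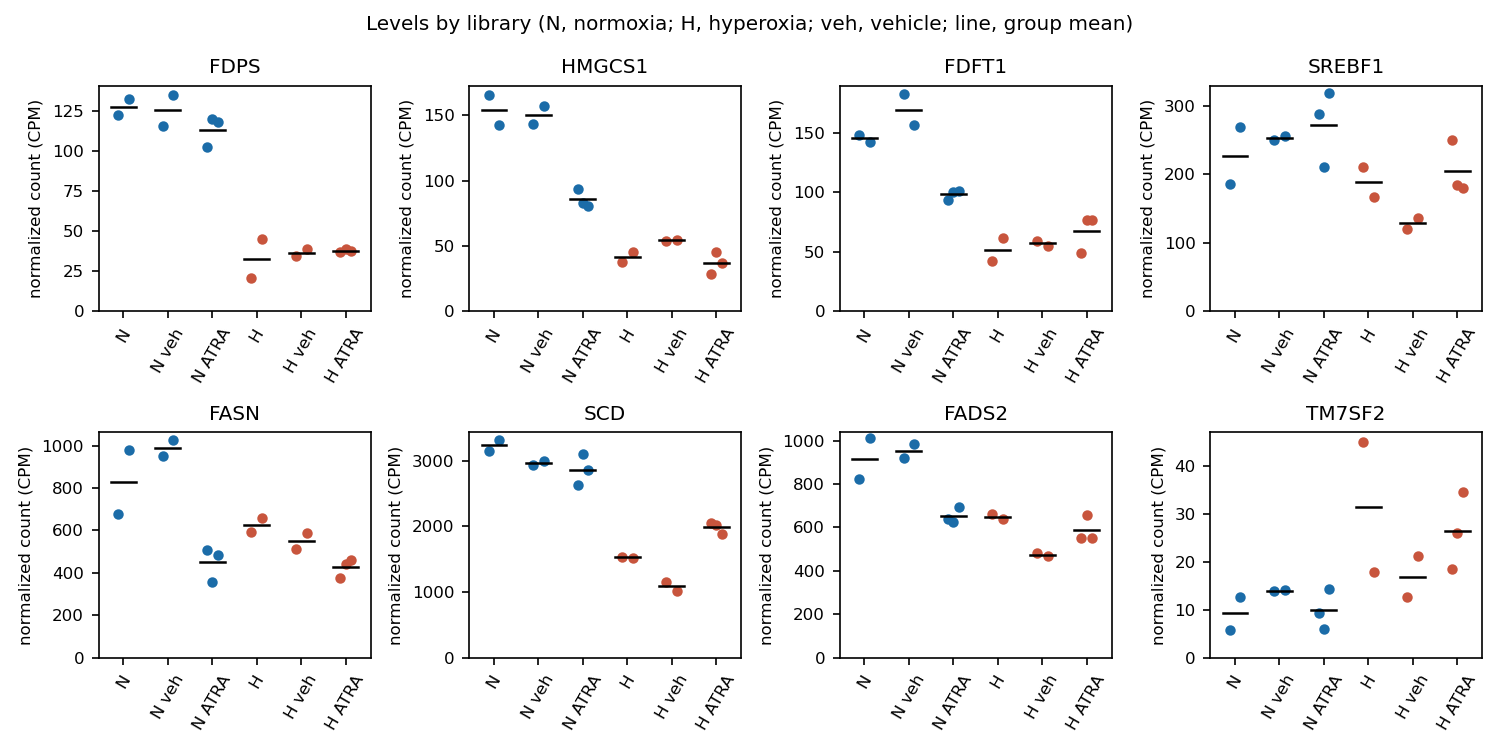
Normalized count (CPM, linear axis from 0) of 8 members in each library, by group, with points for libraries and a line at the group mean. FDPS, HMGCS1 and FDFT1 are low in each hyperoxia group, FASN is near its hyperoxia level in normoxia with ATRA, and SCD in hyperoxia is higher with ATRA (1881 to 2049 CPM) than with vehicle (1023 and 1154 CPM).

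Whether ATRA changed these genes was asked within each oxygen exposure. In normoxia 5 members had lower counts with ATRA than with vehicle, against 0.435% of the 14957 genes tested, and none had higher counts, against 0.816%. They were HMGCS1, IDI1 and FDFT1 of the sterol pathway and FASN and FADS2 of the fatty acid pathway. All 18 sterol genes had a log2 fold change below 0, with a median of -0.47, against 49.9% below 0 and a median of 0.00 over all genes tested, and 7 of the 18 had an unadjusted p under 0.05, against 8.79% of all genes. FASN had 505, 355 and 485 CPM with ATRA and 949.9 and 1028 CPM with vehicle. All 3 ATRA libraries lay below both vehicle libraries, and the log2 fold change of -1.14 ± 0.14 (SE, edgeR adjusted p = 5.8e-05) put ATRA at 0.454 of the vehicle level. HMGCS1 had 93.9, 83.0 and 80.4 CPM with ATRA and 144 and 157 CPM with vehicle, with a log2 fold change of -0.81 ± 0.16 (SE, edgeR adjusted p = 0.0107). For FDFT1 the levels were 93.9, 100.2 and 101 CPM with ATRA and 182 and 156 CPM with vehicle, with a log2 fold change of -0.78 ± 0.17 (SE, edgeR adjusted p = 0.0164). IDI1 had 27.1, 36.8 and 33.3 CPM with ATRA and 67.4 and 52.0 CPM with vehicle, with a log2 fold change of -0.87 ± 0.21 (SE, edgeR adjusted p = 0.0342). FADS2 had 636, 623 and 695 CPM with ATRA and 922 and 985 CPM with vehicle, with a log2 fold change of -0.55 ± 0.12 (SE, edgeR adjusted p = 0.0146). In each of these genes the groups did not overlap.

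The fall of FASN remained under each setting tried. The normoxia libraries without vehicle had 678 and 981 CPM of FASN, and against them the log2 fold change with ATRA was -0.89 (SE 0.17, edgeR adjusted p = 0.0238). HMGCS1 was lower against them as well, with a log2 fold change of -0.84 (adjusted p = 0.0435). The calls of FDFT1, IDI1 and FADS2 were not made against the libraries without vehicle, with log2 fold changes of -0.56, -0.82 and -0.49 (adjusted p = 0.506, 0.147 and 0.116). With the library that stood apart also out of that fit, IDI1 and FADS2 were called as well and FDFT1 was not (adjusted p = 0.135). With all 14 libraries in the fit and vehicle as the control, FASN was the 1 member called. Leaving out either normoxia vehicle library left FASN as the 1 member called, and leaving out normoxia ATRA replicate 1 left 2, FASN and HMGCS1. IDI1 also lost its call without either hyperoxia vehicle library, without normoxia ATRA replicate 3 and with a block by library set (edgeR adjusted p from 0.0592 to 0.0834). This comparison and that of the oxygen exposures with vehicle share the 2 normoxia vehicle libraries.

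In hyperoxia 2 members had higher counts with ATRA than with vehicle, SREBF1 and SCD, against 1.52% of all genes tested, and none had lower counts, against 0.695%. SCD had 2049, 2022 and 1881 CPM with ATRA and 1154 and 1023 CPM with vehicle. The ATRA libraries lay above both vehicle libraries and below each normoxia library, and the log2 fold change of 0.87 ± 0.12 (SE, edgeR adjusted p = 0.000127) put ATRA at 1.82 times the vehicle level. SREBF1 had 249.5, 184 and 181 CPM with ATRA and 120.1 and 137 CPM with vehicle, also without overlap, with a log2 fold change of 0.68 ± 0.17 (SE, edgeR adjusted p = 0.0346). The median log2 fold change over the sterol genes was 0.06, against 0.00 over all genes tested, and HMGCS1 had the lowest value, -0.59 (adjusted p = 0.103). The hyperoxia libraries without vehicle had 1538 and 1514 CPM of SCD and 210.1 and 166 CPM of SREBF1, above the vehicle libraries. Against them the log2 fold change with ATRA was 0.38 for SCD (adjusted p = 0.152) and 0.12 for SREBF1 (adjusted p = 0.754), so neither was called. Without the library that stood apart these were 0.39 and 0.30 (adjusted p = 0.657 and 0.901). SREBF1 also lost its call in the fit of all 14 libraries (adjusted p = 0.223), with a block by library set (adjusted p = 0.062), and without either vehicle library of either exposure or hyperoxia ATRA replicate 1. This comparison shares the hyperoxia vehicle libraries with that of the oxygen exposures.

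**Figure D4:**
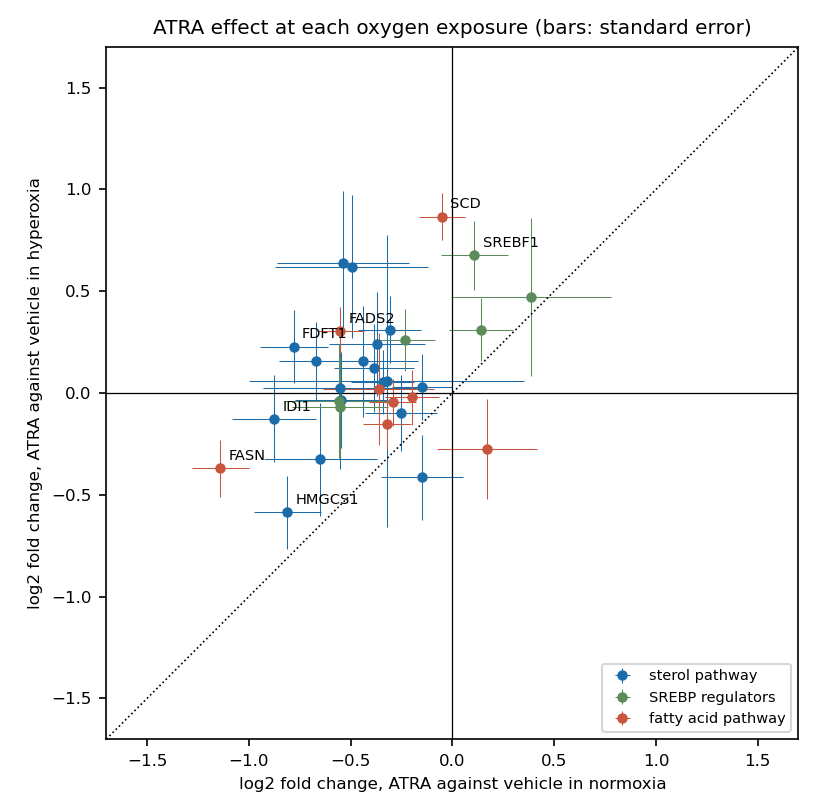
Log2 fold change of each member with ATRA against vehicle in normoxia (horizontal axis) and in hyperoxia (vertical axis) with standard errors, and a dotted line where both are equal. Sterol genes (blue) lie left of 0 in normoxia and on both sides of 0 in hyperoxia; FASN is farthest left (-1.14) and SCD highest (0.87), and most points lie above the line.

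The difference of the ATRA effect between the exposures passed the test for 2 members, against 0.14% of all genes tested. For SCD it was 0.92 on the log2 scale (SE 0.16, edgeR adjusted p = 0.0145), from -0.05 in normoxia to 0.87 in hyperoxia. For FADS2 it was 0.85 (SE 0.17, edgeR adjusted p = 0.0386), from -0.55 to 0.30. FDFT1 and FASN had differences of 1.01 and 0.77 that did not pass (adjusted p = 0.167 and 0.211). The largest difference of all members, 1.17 for MVK, did not pass either. With the libraries without vehicle as the control the differences were 0.55 for SCD (adjusted p = 0.634) and 0.35 for FADS2 (adjusted p = 0.655), and neither passed. Without the library that stood apart they were 0.57 and 0.37. In the fit of all 14 libraries with vehicle as the control neither passed (adjusted p = 0.0788 and 0.239). Leaving out any 1 of the 4 vehicle libraries or hyperoxia ATRA replicate 2 also ended both calls, and leaving out normoxia ATRA replicate 1 or 2 ended that of FADS2.

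Ethanol, the vehicle, was itself compared with no vehicle. In hyperoxia none of the 32 members passed edgeR's test, against 0.00652% of the 15339 genes tested, while 4 had an unadjusted p under 0.05, against 8.91% of all genes, and DESeq2 called 1. Those 4 were DHCR7, SREBF1, SCD and FADS2, with log2 fold changes of -0.86, -0.55, -0.49 and -0.45 (adjusted p = 0.554 for each). Without the library that stood apart these were -0.67, -0.37, -0.47 and -0.42, and 3 members, against 1.72% of all genes, had an unadjusted p under 0.05 while none passed edgeR's test. DHCR7 had 57.5 and 55.8 CPM with vehicle and 114 and 90.6 CPM without, and the groups did not overlap. Without hyperoxia no vehicle replicate 2, when the library that stood apart was the one left without vehicle, 14 members and 33.3% of all genes were called. In normoxia 0 members passed by edgeR or DESeq2, 0 had an unadjusted p under 0.05, and 0% of all genes were called.

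Related genes outside the 32 moved in both directions, and their counts in hyperoxia with vehicle stand beside 8.81% lower and 8.68% higher of all genes tested. Of 9 genes listed under SREBP processing, the transport of SREBPs to the Golgi and their cutting, 2 were lower and 1 was higher in hyperoxia with vehicle. Their median log2 fold change was -0.08, and the part of each gene in that step was not tested. MBTPS1, the protease that makes the first cut in the SREBPs, had 50.6 and 56.8 CPM in hyperoxia and 161 and 146 CPM in normoxia, without overlap, and a log2 fold change of -1.51 (SE 0.16, edgeR adjusted p = 6.01e-07). With ATRA in hyperoxia it had 109, 92.6 and 86.9 CPM, which was 0.84 above vehicle on the log2 scale (edgeR adjusted p = 0.00212). By that test 1.52% of all genes were higher with ATRA in hyperoxia. Whether this value of MBTPS1 holds against the libraries without vehicle was not tested. SEC23A, a coat protein of the vesicles that leave the endoplasmic reticulum, had a log2 fold change of -0.93, and TRIM8, a ubiquitin ligase, one of 1.13 (adjusted p = 0.000303 and 0.000238). Of 6 genes of the sterol-sensing LXR receptors, 2 were higher and none lower, with a median of 0.40. ABCA1, the pump that exports cholesterol and a target of LXR, had 239 and 264 CPM in hyperoxia and 34.4 and 37.6 CPM in normoxia, a log2 fold change of 2.80 (SE 0.18, edgeR adjusted p = 7.78e-10). ABCG1, another exporter, had -0.21 (adjusted p = 0.755) and was not called, and the receptor NR1H2 was higher by 0.86 (adjusted p = 0.000514).

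Beside the same shares of all genes, 8.81% lower and 8.68% higher, storage and transport of cholesterol had 2 higher and 0 lower of 7 genes, with a median log2 fold change of 0.39: NCEH1, which hydrolyzes cholesterol esters, with 1.57 (adjusted p = 7.14e-07), and NPC1, which exports cholesterol from lysosomes, with 0.70 (adjusted p = 0.0133). NCEH1 had 262 and 249.6 CPM in hyperoxia with vehicle and 111, 129.7 and 155 CPM with ATRA, a log2 fold change of -0.96 with ATRA (adjusted p = 0.000519 from edgeR). By that test 0.695% of all genes were lower with ATRA in hyperoxia. The fall of NCEH1 was likewise not tested against the libraries without vehicle. Of 9 genes that use farnesyl diphosphate for other isoprenoids, 1 was lower (the farnesyltransferase subunit FNTB, -0.70) and 1 higher (GGPS1, which makes geranylgeranyl diphosphate, 1.03), with a median of 0.07. Of 12 genes that supply or process fatty acids, 11 passed the filter, and ME1 and the citrate carrier SLC25A1 were lower (-0.66 and -0.65) while the elongase ELOVL1 was higher (0.66), with a median of -0.17. Glycerolipid and lipid droplet genes had 1 lower (PLIN3, -0.78) and 1 higher (the lipase PNPLA2, 0.80) of 9, with a median of 0.37. None of 9 genes of fatty acid oxidation was called by edgeR, and 3 had an unadjusted p under 0.05, against 28.5% of all genes, with a median of 0.12.

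Some members share genomic sequence with a neighbor. The libraries were made with a kit that keeps strand, but the strand setting of the counting is not given in the sources used here, and 9 of the 32 members overlap another gene that held at least 10% as many counts, each on the opposite strand. FDPS overlaps RUSC1-AS1, which held 84.7% as many counts and was lower in hyperoxia with vehicle too, with a log2 fold change of -1.90 (adjusted p = 1.3e-05 from edgeR). SREBF1 overlaps RAI1, with 64.5% as many counts and a log2 fold change of 0.05 (adjusted p = 0.884). MVK overlaps MMAB (93.8% as many counts), ACAT2 overlaps TCP1 and SOD2 (292% and 122%), IDI1 overlaps WDR37 and IDI2-AS1, and FADS1 and FADS2 overlap each other. STARD4 and SREBF2 overlap their antisense genes, with 16.1% and 10.1% as many counts.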

How the data were processed

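Raw counts per gene, 1 table for each library, were the values the authors deposited. Per the labels and the study's methods, reads were trimmed with Trimmomatic 0.38, aligned to hg38 with HISAT2 and counted with HTSeq. The annotation release and the strand and overlap settings are not given in the sources used here. Rows that name no gene were left out of library sizes and tests, and reads outside genes were 48.6% to 55.3% of all counts.

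edgeR 4.0.16 (R 4.3.3) was used with TMM normalization, filterByExpr (minimum count 10, minimum total 15) and the quasi-likelihood test. Comparisons with vehicle or ATRA were fitted on 10 libraries in 4 groups (14957 genes), and those without vehicle on 14 libraries in 6 groups (15339 genes). P-values were adjusted by Benjamini-Hochberg over all genes tested, with a threshold of 0.05, and CPM come from the 14 libraries. The scripts were tested on simulated data. Every member is named, and from each related list at most the 3 genes with the smallest adjusted p under 0.05 in hyperoxia with vehicle. ABCG1, and the genes named for their overlap or as markers, were added for their role. The members and lists were chosen with earlier results of these data known. Alternatives were DESeq2 1.42.0, RLE factors, no filter on low counts, other sets of libraries in the fit, a block by library set and leaving out each library. The libraries without vehicle as the control for ATRA, and the ranges over all libraries without the one that stood apart, were alternatives chosen after seeing the data. Positions and promoters are from RefSeq GRCh38.p14, strands and transcript lengths from GENCODE 44. Figures were drawn with Python 3.11.15 and matplotlib 3.10.9. A library labelled both as hyperoxia and as adipogenic differentiation was placed in no group.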

Additional observations from a re-analysis of the deposited data

Results flagged for a closer look

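The effect of ATRA differed between the oxygen exposures for 2 members by edgeR's test of that difference, against 0.14% of all genes tested, which is what set them apart for a closer look. For SCD the log2 effect in hyperoxia minus that in normoxia was 0.92 (SE 0.16, edgeR adjusted p = 0.0145), and SCD was higher with ATRA in 3 of 3 hyperoxia libraries than in both vehicle libraries. For FADS2 it was 0.85 (SE 0.17, edgeR adjusted p = 0.0386), with 549.7, 657 and 553 CPM with ATRA and 481 and 469 CPM with vehicle in hyperoxia. The hyperoxia libraries without vehicle had 661 and 637 CPM of FADS2. Both calls were lost when those libraries replaced the vehicle libraries as the control.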

How the results depend on the processing

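Of the 512 values of the 32 members in hyperoxia against normoxia with vehicle under the alternatives, 471 kept their direction and side of the threshold, 19 lost and 17 gained a call, and 5 changed sign. As libraries were left out, INSIG2 ran from -0.30 to 0.032, SC5D from -0.30 to 0.0033, SCAP from -0.058 to 0.11 and TM7SF2 from -0.17 to 0.57, with the sign changing without normoxia vehicle replicate 1 (INSIG2, SCAP) or hyperoxia vehicle replicate 2 (SC5D, SCAP, TM7SF2). The number of members called in that comparison was 19 and ran from 12 to 22 as libraries were left out, while all genes called went from 2616 to between 1386 and 3175. With ATRA it was 14 and 9 in the fit of 14 libraries (all genes 3391 and 1975). Without vehicle it was 14, 0 with only the groups compared in the fit (2 against 2 libraries), and 8 to 24 as libraries were left out (all genes 2324, 58, and 969 to 7364).

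For ATRA in hyperoxia the count was 2 (all genes 331, and 83 to 449 as libraries were left out). It was 1 in the fit of 14 libraries, 0 with the libraries without vehicle as the control, with or without hyperoxia no vehicle replicate 1, and 1 to 3 as libraries were left out. For ATRA in normoxia it was 5, 1 in the fit of 14 libraries, 2 with the libraries without vehicle as the control and 1 to 6 as libraries were left out (all genes 187, and 56 to 267). For the difference of the effects it was 2, 4 with DESeq2 and without the filter, 0 in the fit of 14 libraries and with the libraries without vehicle as the control (with or without hyperoxia no vehicle replicate 1), and 0 to 3 as libraries were left out (all genes 21, and 4 to 28). For vehicle against none in hyperoxia it was 0, 1 with DESeq2 and without the filter, and 0 to 14 as libraries were left out (all genes 1, and 1 to 5630). The cause of these changes was not tested.

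A replicate block by library set, read from the library numbers, left 1 member called for ATRA in hyperoxia, SCD, ended the call of SREBF1 there, and moved no other count of members by more than 1.5 times. The block also ended the call of IDI1 for ATRA in normoxia (edgeR adjusted p = 0.0791). In the comparison of the exposures without vehicle it ended those of FADS2, INSIG1 and MVK (edgeR adjusted p = 0.0573, 0.0729 and 0.14). The labels do not say that these sets are batches. Deviations from the group means were correlated across genes between libraries of different groups. The correlations ran from -0.02 to 0.06 within a set and from -0.06 to 0.03 between sets. In groups of 2 libraries the deviations mirror each other, so these values do not decide whether the sets differ. Depth was 2642377 to 5605072 counts a library, and the standard errors in hyperoxia against normoxia with vehicle reached 0.76 for HSD17B7 and 0.43 for INSIG2, against 0.13 for SCD.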

Other observations

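A further library, which its title calls hyperoxia and its treatment label adipogenic differentiation, was placed in no group and entered no test. Scaled together with the 14 other libraries, it had 36.9 CPM of FDPS, 49.3 CPM of HMGCS1, 1193 CPM of SCD and 624 CPM of FASN. For 30 of the 32 members its value lay within the range of the 7 hyperoxia libraries, and for 10 within the range of the 7 normoxia libraries. STARD4, with 11.1 CPM, lay within the hyperoxia range only through the library that stood apart, which had 10.5 CPM. SQLE, with 33.4 CPM, lay below every hyperoxia library, and IDI1, with 32.5 CPM, above every one. The adipocyte genes ADIPOQ, PLIN1, FABP4 and LEP had 0 counts in it, and PPARG had 21.2 CPM, against 13.1 to 22.7 CPM in hyperoxia and 20.9 to 41.2 CPM in normoxia.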
